A study of Mus musculus with 20 samples.

Results

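The 5 genes described here encode the GABA-B receptor (*Gabbr1* and *Gabbr2*) and the neuronal GIRK channels that it opens (*Kcnj3*, *Kcnj6* and *Kcnj9*). They were chosen by name, with earlier results of these data known. They are 5 of the 35580 genes, with 28 of the 113580 transcripts, whose estimated counts and TPM were summed per gene. RNA-seq was performed on the hippocampus and neocortex of male mice aged 13.5 months, with 5 samples in each of the 4 groups. The mice were wild-type (WT) or carried a global deletion of *Mir324* (miR-324-null). Founders of mixed C57BL/6 and CBA/ca origin were backcrossed to C57BL/6J, and crosses of heterozygotes then gave WT and miR-324-null lines. The deletion was made with CRISPR/Cas9 and removes both arms of the microRNA in all tissues throughout life. Acute loss was not examined. The study asked which genes differ in the brain of miR-324-null mice, after recording excitability in slices of younger female animals. The 4 groups were therefore WT hippocampus, miR-324-null hippocampus, WT neocortex and miR-324-null neocortex, with no drug treatment given in the labels.

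GABA-B receptors are the G protein-coupled receptors for GABA, the main inhibitory transmitter of the brain. They work as an obligatory heterodimer in which GABA-B1, the product of *Gabbr1*, binds the ligand and GABA-B2, the product of *Gabbr2*, carries the receptor to the surface and couples to Gi/o proteins. The beta-gamma dimer released from the G protein opens GIRK channels, which are tetramers of GIRK1 (*Kcnj3*), GIRK2 (*Kcnj6*) and GIRK3 (*Kcnj9*) in neurons, and the potassium current that follows hyperpolarises the cell. GIRK2 can reach the surface without a partner, GIRK1 needs another subunit to do so, and GIRK3 is known for directing channels towards lysosomes. KCTD proteins bind GABA-B2 and shape the speed and decay of the response, and RGS proteins end it by speeding the hydrolysis of GTP.

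The sum of estimated counts lay between 12752439 and 19617765 in a sample, and all 5 genes passed edgeR's filter on low counts in every comparison. All 7 markers of hippocampal field neurons were higher in the hippocampus and 6 of 7 markers of neocortical layers were lower there, in WT and in miR-324-null mice. 3 libraries stood apart through transcripts of the choroid plexus, the tissue that makes cerebrospinal fluid. The summed TPM of 6 choroid plexus markers was 6959 in WT hippocampus replicate 3, 6012 in miR-324-null hippocampus replicate 5 and 1286 in miR-324-null neocortex replicate 2, against 18.5 to 181 in the other samples. The counts of DE genes among the 5 genes and the pathway lists were therefore also made without these 3 libraries. *Mir324* itself was not analysed here, because mRNA libraries do not measure so short an RNA.

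The sequences of the deleted microRNA are shown because its arms act by pairing of the seed, bases 2 to 8, with 3′ UTRs. RefSeq (GRCm38.p6) places miR-324-5p at chr11:70012060-70012082 and miR-324-3p at chr11:70012095-70012114, both on the plus strand. The seed is in capitals.
mmu-miR-324-5p: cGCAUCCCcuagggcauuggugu
mmu-miR-324-3p: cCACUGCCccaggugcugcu
The 7 bases complementary to each seed are GGGATGC for the 5p arm and GGCAGTG for the 3p arm, and both were searched on the transcript strand in the longest annotated 3′ UTR of each gene (GENCODE, GRCm38). GGGATGC was in the 3′ UTR of 0 of the 5 genes and of 7.4% of 20981 protein-coding genes. GGCAGTG was in that of 1 of the 5 genes and of 12.7% of all. The searched UTRs of the 5 genes were 2041 to 3324 bases long, against a median of 962 bases over all genes, so these shares are not those of UTRs of like length. The searched UTRs of *Gabbr1* (2041 bases), *Gabbr2* (2479), *Kcnj3* (3324) and *Kcnj6* (2471) held neither run of letters. The longest UTR of *Kcnj6* belongs to the scarce *Kcnj6-203*, and the shorter ones of *Kcnj6-201* (630.0) and *Kcnj6-202* (1291) held neither run either. In *Kcnj9* GGCAGTG occurred 2 times in a 3′ UTR of 2362 bases, at positions 88 and 1474 after the stop codon. They lie in the last part of the gene on the minus strand of chromosome 1, at chr1:172322758-172322786 and chr1:172321372-172321400. The matching bases are in capitals.
Kcnj9 3′ UTR, position 88: aagaggaggcaGGCAGTGtcccgaggaac
Kcnj9 3′ UTR, position 1474: acccccaaggaGGCAGTGgggggtctgta
Neither is followed by an A, the base that often stands next to a strong site. These are matches of letters, and isomiRs with a shifted seed were not searched.

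All 5 genes were expressed in every sample. On the TPM scale, which allows for transcript length, *Gabbr1* had the highest level in all 4 groups, with 344 ± 16.7 TPM in WT hippocampus and 405 ± 34.9 TPM in WT neocortex (mean ± SD, n = 5). *Gabbr2* followed, with 88.9 ± 6.74 and 116 ± 5.80 TPM, and *Kcnj6* was the lowest, with 20.3 ± 2.95 and 13.9 ± 1.67 TPM. The order of the remaining channel subunits turned between the tissues. *Kcnj3* was above *Kcnj9* in 10 of 10 hippocampal samples, with 55.2 ± 5.03 against 45.9 ± 2.71 TPM in WT mice. *Kcnj9* was above *Kcnj3* in 10 of 10 neocortical samples, with 83.8 ± 6.49 against 58.9 ± 5.21 TPM in WT mice. Their ranges overlapped in miR-324-null hippocampus (36.4 to 53.2 TPM for *Kcnj9* and 45.7 to 68.1 TPM for *Kcnj3*) and in no other group. A part of the *Gabbr1* level was assigned to a short transcript described below, so the distance between *Gabbr1* and *Gabbr2* depends on which transcripts are summed.

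The effect of the genotype was asked in each tissue on its own, for the receptor subunits first. *Gabbr1* was measured at 644, 653, 653, 647 and 656 CPM in WT hippocampus and at 664, 648, 677, 667 and 619 CPM in miR-324-null hippocampus. The WT samples lay within a narrow band inside the range of the miR-324-null samples. In bulk tissue such as this, fewer cells of a type and less RNA per cell cannot be told apart. The difference was small (logFC 0.0092 ± 0.045 SE, 95% interval -0.088 to 0.11, edgeR adjusted *p* value = 0.964). *Gabbr2* stood at 307, 305, 327, 321 and 283 CPM in WT hippocampus and at 306, 295, 321, 318 and 326 CPM in miR-324-null hippocampus, where all 5 values fell inside the WT range (logFC 0.021 ± 0.053, 95% interval -0.093 to 0.14, edgeR adjusted *p* value = 0.921).

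In the neocortex *Gabbr1* was at 739, 738, 674, 678 and 711 CPM in WT samples and at 703, 661, 693, 691 and 689 CPM in those of miR-324-null mice, and the groups overlapped (logFC -0.036 ± 0.042, edgeR adjusted *p* value = 0.787). *Gabbr2* was at 411, 410.0, 377, 401 and 394 CPM in WT neocortex and at 363, 357, 355, 404 and 389 CPM in miR-324-null neocortex. Replicates 1 to 3 of the miR-324-null group lay below all WT samples and replicates 4 and 5 lay among them. The logFC was -0.087 ± 0.047 (95% interval -0.19 to 0.015) and did not pass the test (edgeR adjusted *p* value = 0.494).

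In miR-324-null hippocampus the channel subunits varied more between the samples than the receptor subunits, and in the other groups the order was mixed. *Kcnj3* (GIRK1) was measured at 138, 148, 152, 149.5 and 141 CPM in WT hippocampus and at 127, 138, 177, 159 and 152 CPM in miR-324-null hippocampus. The spread was wider in the miR-324-null group and covered the WT samples (logFC 0.047 ± 0.078, edgeR adjusted *p* value = 0.868). In the neocortex *Kcnj3* was at 148, 152, 161, 161 and 147 CPM in WT samples and at 139, 155, 153, 148 and 162 CPM in those of miR-324-null mice, again with overlapping groups (logFC -0.016 ± 0.051, edgeR adjusted *p* value = 0.936).

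*Kcnj6* (GIRK2) was measured at 27.4, 27.9, 33.0, 34.2 and 26.5 CPM in WT hippocampus and at 16.7, 18.8, 29.9, 32.1 and 34.8 CPM in miR-324-null hippocampus. Replicates 1 and 2 of the miR-324-null group lay below all WT samples, while its replicates 3 to 5 lay in or just above the WT range. The logFC of -0.17 ± 0.18 had a 95% interval from -0.56 to 0.23, the widest of the 5 genes, and did not pass the test (edgeR adjusted *p* value = 0.781). It ran from -0.29 to -0.043 when 1 library was left out. The same miR-324-null replicates 1 and 2 held the highest summed level of 7 inhibitory interneuron markers, with 1114 and 1017 TPM. That sum was 720.0 to 980.1 TPM in replicates 3 to 5 and 709 to 963 TPM in WT hippocampus. *Sst* was the highest of these 7 markers, with 430.3 to 799.7 TPM in miR-324-null and 421.1 to 581.1 TPM in WT hippocampus. The highest values of *Pvalb*, *Vip* and *Slc32a1* were lower in miR-324-null than in WT hippocampus, and those of *Gad1*, *Gad2* and *Lhx6* were higher. Replicates 1 and 2 of the miR-324-null group also held the lowest summed level of 7 neocortical layer markers in that tissue. It was 127 TPM in each, against 131 to 196 TPM in the other hippocampal samples. The summed level of 5 thalamic neuron markers was highest in these replicates too, with 124.9 and 92.02 TPM. The other hippocampal samples had 48.9 to 91.7 TPM. Of the 5, *Calb2* reached 93.21 TPM in miR-324-null and 51.42 TPM in WT hippocampus, and *Lef1* 7.924 and 5.719 TPM. The highest values of *Tcf7l2*, *Prkcd* and *Rora* were lower in miR-324-null than in WT hippocampus. The part of cell composition in the low *Kcnj6* values was not tested. In the neocortex *Kcnj6* was at 23.7, 21.7, 17.2, 20.7 and 18.5 CPM in WT and at 19.3, 22.5, 23.2, 21.8 and 21.1 CPM in miR-324-null samples. All miR-324-null values fell inside the WT range (logFC 0.096 ± 0.085, edgeR adjusted *p* value = 0.706).

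*Kcnj9* (GIRK3) showed the lowest unadjusted *p* value of the genotype comparisons. It was measured at 184, 183, 186, 191 and 172 CPM in WT neocortex and at 156, 143, 149, 158 and 189.8 CPM in miR-324-null neocortex. Replicates 1 to 4 of the miR-324-null group lay below all WT samples and replicate 5 lay near the top of the WT range. The logFC was -0.19 ± 0.067 (95% interval -0.34 to -0.050), which did not pass the adjustment over all genes (edgeR adjusted *p* value = 0.269, unadjusted *p* value = 0.0124). Without replicate 5 of the miR-324-null group the logFC was -0.26 and passed (edgeR adjusted *p* value = 0.0122). In that set of 9 libraries 566 of 15071 genes were DE (3.76%, against 0.315% with all 10), so the call of *Kcnj9* came with many more calls over all genes. The summed level of the 7 neocortical layer markers was 428, 409, 495, 529 and 660.1 TPM in miR-324-null replicates 1 to 5, against 547.7 to 591.5 TPM in WT neocortex. Replicate 5 was thus the highest of its group in both measures, and replicates 1 to 4 were below all WT samples in both. The summed level of 7 markers of striatal projection neurons, cells of the tissue beneath the neocortex, was 280 to 818 TPM in the neocortex of miR-324-null mice and 165 to 430.0 TPM in that of WT mice. The summed level of 7 markers of hippocampal field neurons was 97.8, 98.9, 74.2, 81.6 and 72.0 TPM in miR-324-null replicates 1 to 5, against 64.0 to 84.1 TPM in WT neocortex. The part of these differences in the *Kcnj9* level was not tested. In the hippocampus *Kcnj9* was at 104, 104, 92.6, 103 and 107 CPM in WT and at 90.4, 84.9, 115, 95.7 and 82.6 CPM in miR-324-null samples, with overlapping groups (logFC -0.12 ± 0.083, 95% interval -0.30 to 0.058, edgeR adjusted *p* value = 0.624).

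**Figure D1:**
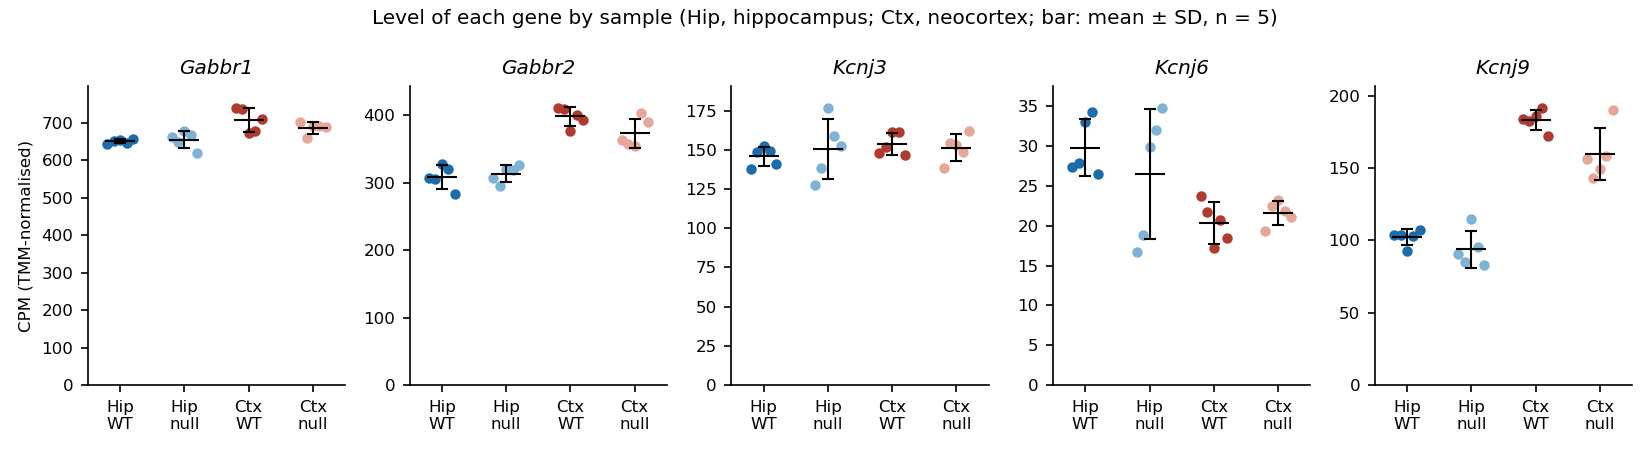
Level of *Gabbr1*, *Gabbr2*, *Kcnj3*, *Kcnj6* and *Kcnj9* in CPM (y axis, TMM-normalised, from 0) in each of the 4 groups (x axis; Hip, hippocampus; Ctx, neocortex), with 1 point a sample and the mean ± SD of 5 samples. *Kcnj9* lies between 143 and 191 CPM in the neocortex and between 82.6 and 115 CPM in the hippocampus, and *Kcnj6* in miR-324-null hippocampus falls into samples at 16.7 and 18.8 CPM and samples at 29.9 to 34.8 CPM.

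With edgeR, 0 of 5 genes were DE (adjusted *p* value at most 0.05) in miR-324-null hippocampus, where 0.115% of the 14796 genes tested were DE, and 0 of 5 in miR-324-null neocortex, where 0.315% of 14930 were. At an unadjusted *p* value of at most 0.05 there were 0 of 5 and 1 of 5 (*Kcnj9*), against 11.1% and 12.2% of all genes. DESeq2 also called 0 of 5 in each tissue, where it called 0.939% and 1.61% of all genes. For hippocampus and neocortex the 5 genes had median logFC values of 0.0092 and -0.036, beside 0.0012 and 0.0046 over all genes tested. The difference between the genotype effects of the tissues was tested as an interaction. It was called for 0 of 5 genes with edgeR, which called 0.0195% of 15391 genes, and for 0 of 5 with DESeq2, which called 0.0715%. At an unadjusted *p* value of at most 0.05 edgeR gave 0 of 5, against 5.57% of all genes, and the largest interaction logFC was that of *Kcnj6* at -0.26 ± 0.22 (edgeR adjusted *p* value = 0.958). Without the 3 libraries high in choroid plexus markers the edgeR counts stayed at 0 of 5, with 0.129% of all genes called by hippocampal genotype, 0.213% by neocortical genotype and 0.00649% in the interaction.

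The tissues differed more clearly than the genotypes. *Kcnj9* and *Gabbr2* were lower in the hippocampus than in the neocortex in both genotypes, *Kcnj6* was higher and *Gabbr1* slightly lower in the hippocampus of WT mice, and *Kcnj3* did not pass the test in either. These comparisons use the per-sample levels given above, and each group enters both a genotype and a tissue comparison. In WT mice 4 of 5 genes were DE between the tissues, 1 higher and 3 lower in the hippocampus, where 36.1% of 14894 genes were DE. In miR-324-null mice 2 of 5 were DE, both lower in the hippocampus, where 27.4% of 15033 genes were. The median logFC of the 5 genes was -0.12 in WT and -0.061 in miR-324-null mice, beside -0.00077 and 0.0081 over all genes.

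*Kcnj9* had a mean of 102 ± 5.51 CPM in WT hippocampus and 183 ± 7.18 CPM in WT neocortex, a fold of 0.557 (logFC -0.84 ± 0.047, edgeR adjusted *p* value = 2.3e-08). All WT hippocampal samples lay below all WT neocortical samples. In miR-324-null mice the means were 93.7 ± 12.8 and 159 ± 18.03 CPM, a fold of 0.591 (logFC -0.76 ± 0.098, edgeR adjusted *p* value = 0.00011), and the groups did not overlap either. *Gabbr2* had means of 309 ± 17.2 and 399 ± 13.8 CPM in WT hippocampus and neocortex (logFC -0.37 ± 0.047, edgeR adjusted *p* value = 4.2e-05) and of 313 ± 12.7 and 374 ± 21.9 CPM in miR-324-null mice (logFC -0.24 ± 0.056, edgeR adjusted *p* value = 0.0060). The groups did not overlap in either genotype. *Kcnj9* and *Gabbr2* remained DE in both genotypes without the 3 libraries high in choroid plexus markers, and in miR-324-null mice these 2 of 5 stood against 21% of all genes.

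*Kcnj6* was the only one of the 5 genes with a higher level in the hippocampus that passed the test. In WT mice its means were 29.8 ± 3.54 CPM in the hippocampus and 20.4 ± 2.60 CPM in the neocortex, a fold of 1.46 (logFC 0.55 ± 0.098, edgeR adjusted *p* value = 0.00061), without overlap. In miR-324-null mice they were 26.5 ± 8.15 and 21.6 ± 1.48 CPM. There the logFC was 0.30 ± 0.18 (95% interval -0.081 to 0.69, edgeR adjusted *p* value = 0.231), with 2 hippocampal samples below the neocortical range and 3 above it. *Gabbr1* had means of 651 ± 5.03 and 708 ± 31.4 CPM in WT hippocampus and neocortex (logFC -0.12 ± 0.040, edgeR adjusted *p* value = 0.032). That call was lost without the 3 libraries high in choroid plexus markers (edgeR adjusted *p* value = 0.074), which left 3 of 5 genes DE against 32.2% of all genes, and when any 1 of 8 of the 10 WT libraries was left out. In miR-324-null mice *Gabbr1* was at 655 ± 22.6 and 687 ± 15.8 CPM (logFC -0.061 ± 0.047, edgeR adjusted *p* value = 0.370). *Kcnj3* had logFC values of -0.076 ± 0.045 in WT (95% interval -0.17 to 0.022, edgeR adjusted *p* value = 0.221) and 0.0019 ± 0.082 in miR-324-null mice (95% interval -0.18 to 0.18, edgeR adjusted *p* value = 0.990). The summed level of 5 general neuronal markers also differed between the tissues, with 2809 to 3464 TPM in the hippocampus and 3667 to 4583 TPM in the neocortex, and its part in these differences was not tested.

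**Figure D2:**
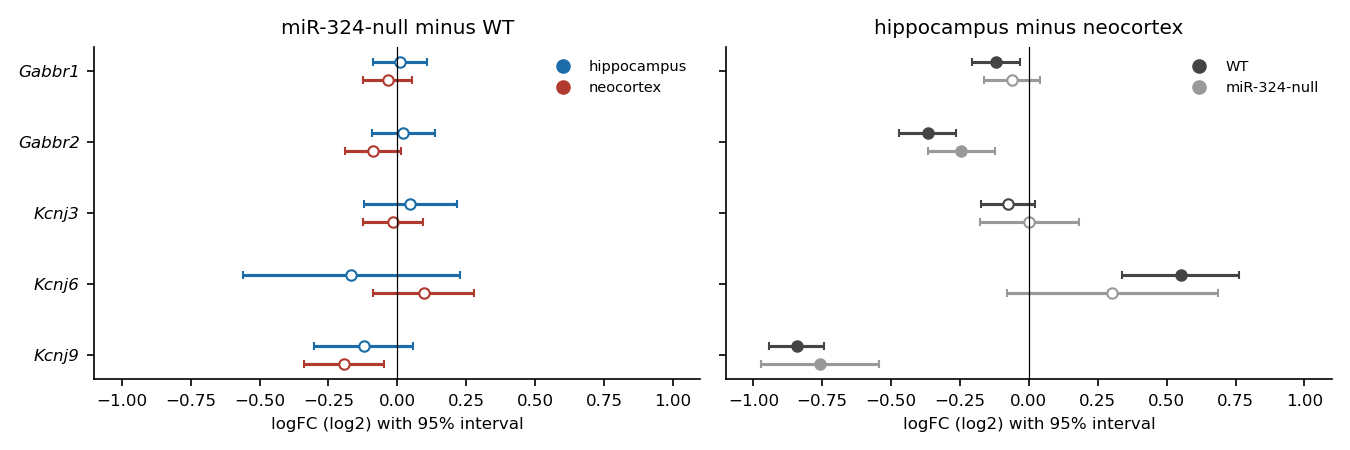
LogFC (x axis, log2 scale) of the 5 genes (y axis) for miR-324-null minus WT in each tissue (left) and for hippocampus minus neocortex in each genotype (right). Points are edgeR estimates, filled where the adjusted *p* value was at most 0.05, and bars are 95% intervals. All points on the left are open, and on the right *Kcnj9* lies at -0.84 and -0.76 and *Kcnj6* at 0.55 and 0.30.

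Since neuronal GIRK channels are mixtures of these subunits, the share of each subunit transcript in the summed TPM of *Kcnj3*, *Kcnj6* and *Kcnj9* was compared over samples, with 20 exact two-sided permutation tests in the family of shares and ratios. The smallest *p* value that 5 against 5 samples allow is 0.00794. In WT hippocampus *Kcnj3* held 45.4 ± 1.42%, *Kcnj9* 37.9 ± 2.75% and *Kcnj6* 16.7 ± 1.53% of the sum. In WT neocortex *Kcnj9* held 53.5 ± 0.303%, *Kcnj3* 37.6 ± 1.002% and *Kcnj6* 8.92 ± 0.998%. *Kcnj9* thus took a smaller share in the hippocampus (a difference of -15.6 percentage points in WT and -13.85 in miR-324-null mice), and *Kcnj3* and *Kcnj6* took larger ones. The hippocampal and neocortical samples did not overlap for any of the 3 shares in either genotype (exact permutation *p* value = 0.00794, adjusted 0.0227, for all 6 comparisons). The 3 shares sum to the whole, so they are not independent of each other.

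Between the genotypes, the share of *Kcnj3* in the hippocampus was 43.8, 46.0, 47.2, 46.0 and 44.1% in WT and 47.5, 50.8, 47.9, 48.2 and 49.1% in miR-324-null samples. Every miR-324-null value lay above every WT value, although the highest WT and the lowest miR-324-null value were close. The difference of 3.32 percentage points kept its call when any 1 of the 10 libraries was left out, and it had the smallest exact permutation *p* value possible (0.00794, adjusted 0.0227). The level of *Kcnj3* in CPM did not pass its own test, and the values of *Kcnj9* and *Kcnj6* that enter the sum were those given above. The share of *Kcnj9* in the neocortex was 53.5, 53.7, 53.9, 53.1 and 53.4% in WT and 52.9, 46.1, 48.3, 49.6 and 53.1% in miR-324-null samples. The WT samples were nearly alike, and miR-324-null replicate 5 lay among them. The difference of -3.51 percentage points had an exact permutation *p* value of 0.0159 (adjusted 0.0353), which was lost when any 1 of 8 of the 10 neocortical libraries was left out (adjusted permutation *p* value up to 0.0706). The shares of *Kcnj3* in the neocortex (+2.32 points, exact permutation *p* value = 0.0714) and of *Kcnj6* in both tissues (-1.51 and +1.19 points, exact permutation *p* values = 0.357 and 0.0794) did not pass, nor did *Kcnj9* in the hippocampus (-1.81 points, exact permutation *p* value = 0.389). Whether the change of a share differed between the tissues was not tested. Without the 3 libraries high in choroid plexus markers the *Kcnj3* difference in the hippocampus was 3.65 points and that of *Kcnj9* in the neocortex -2.54 points. No test of the family passed the adjustment in that smaller set (adjusted permutation *p* value = 0.0635 for both differences). With 4 hippocampal samples against 4 the smallest exact *p* value is 0.0286.

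**Figure D3:**
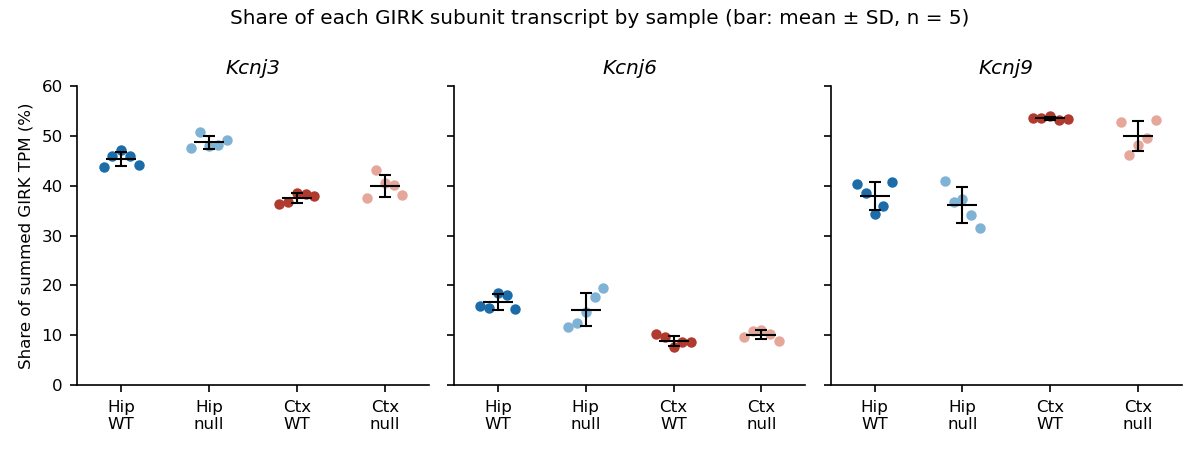
Share of *Kcnj3*, *Kcnj6* and *Kcnj9* in the summed TPM of the 3 genes (y axis, percent) in each of the 4 groups (x axis; Hip, hippocampus; Ctx, neocortex), with 1 point a sample and the mean ± SD of 5 samples. *Kcnj9* holds 53.5% in WT neocortex and 37.9% in WT hippocampus, and the *Kcnj3* share of miR-324-null hippocampus (48.7 ± 1.32%) lies just above that of WT hippocampus.

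The balance of the receptor subunits was measured as the log2 ratio of *Gabbr1* to *Gabbr2* TPM. It was 1.96 ± 0.0915 in WT hippocampus and 1.80 ± 0.0741 in WT neocortex, a difference of 0.160 (exact permutation *p* value = 0.0159, adjusted 0.0353) that lost its call when any 1 of 8 of the 10 WT libraries was left out and without the libraries high in choroid plexus markers. In miR-324-null mice it was 2.03 ± 0.123 and 1.92 ± 0.0689 (exact permutation *p* value = 0.119). The genotype difference was 0.0776 in the hippocampus (exact permutation *p* value = 0.286) and 0.126 in the neocortex (exact permutation *p* value = 0.0317, adjusted 0.0635). With protein-coding transcripts alone these differences were 0.024 and 0.040 (exact permutation *p* values = 0.698 and 0.357). The log2 ratio of the summed receptor TPM to the summed channel TPM was 1.84 ± 0.0488 in WT hippocampus, 1.98 ± 0.168 in miR-324-null hippocampus, 1.73 ± 0.115 in WT neocortex and 1.84 ± 0.0973 in miR-324-null neocortex. It did not pass in any of the 4 comparisons (exact permutation *p* values from 0.111 to 0.183).

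The transcripts of *Gabbr1* differ in where they start, which decides the form of the receptor. A full-length transcript from the upstream start encodes GABA-B1a, which carries a pair of sushi domains known for directing the receptor to axon terminals. One from the internal start encodes GABA-B1b, which lacks them. The first 45 coding bases are shown with the start codon in capitals because they separate both forms. *Gabbr1-201* and *Gabbr1-202* start at chr17:37046695-37046739 and *Gabbr1-203* at chr17:37050854-37050898, all on the plus strand (GRCm38).
Gabbr1-201 and Gabbr1-202: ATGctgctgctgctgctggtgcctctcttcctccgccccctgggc
Gabbr1-203: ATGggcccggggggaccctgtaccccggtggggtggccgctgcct
*Gabbr1-201* and *Gabbr1-203* share the end of the coding sequence. The short *Gabbr1-202* (1460 bases) stops after a coding length of 690 bases, against 2883 in *Gabbr1-201* and 2535 in *Gabbr1-203*. *Gabbr1-202* thus lacks most of the coding sequence of the receptor subunit. It is annotated as protein-coding and entered all the ratios above that include *Gabbr1*, also those with protein-coding transcripts alone.

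Most of the *Gabbr1* level was assigned to the GABA-B1b-type transcript. *Gabbr1-203* averaged 217 TPM over the 20 samples (193.6 to 239.7), *Gabbr1-202* 122 TPM (91.4 to 147) and *Gabbr1-201* 15.6 TPM (12.2 to 18.8). The division of reads between overlapping transcripts is an estimate of kallisto. *Gabbr1-203* took 64.5, 59.4, 59.9, 61.6 and 61.9% of the gene's TPM in WT hippocampus and 55.0, 57.1, 54.7, 54.1 and 62.0% in miR-324-null hippocampus. Replicate 5 of the miR-324-null group lay within the WT range and its other samples below it. In the neocortex the share was 55.7 ± 2.30% for WT and 52.5 ± 2.12% for miR-324-null mice. *Gabbr1-211*, a retained-intron transcript of 378 bases, was listed at 0 in 9 of 20 samples and took up to 10.8% of the gene's TPM in others, so that a transcript of few reads moved the shares of the rest. None of the 32 exact permutation tests of transcript shares passed the adjustment (lowest adjusted *p* value = 0.254), for *Gabbr1-203* or any other transcript.

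*Kcnj3* and *Kcnj6* transcripts differ at their 3′ coding ends, which encode the cytoplasmic tail. The last 45 coding bases are shown with the stop codon in capitals. Those of *Kcnj3-201* lie at chr2:55595353-55595397 on the plus strand and those of *Kcnj6-202* at chr16:94762360-94762404 on the minus strand, and those of *Kcnj3-202* and *Kcnj6-201* cross an exon junction.
Kcnj3-201: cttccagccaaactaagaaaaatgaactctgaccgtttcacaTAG
Kcnj3-202: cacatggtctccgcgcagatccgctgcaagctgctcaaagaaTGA
Kcnj6-201: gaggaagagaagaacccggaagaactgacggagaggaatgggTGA
Kcnj6-202: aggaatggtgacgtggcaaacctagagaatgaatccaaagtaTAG
Kcnj9-201: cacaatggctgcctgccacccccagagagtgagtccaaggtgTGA
*Kcnj3-202* has a coding length of 708 bases against 1506 in *Kcnj3-201*, and so lacks much of the tail. The long *Kcnj6-202* and *Kcnj9-201* end in a PDZ-binding motif known to bind the sorting protein encoded by *Snx27*, which *Kcnj6-201* lacks.

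In *Kcnj3* kallisto assigned the larger fraction to the short-tailed *Kcnj3-202* in every group. It took 58.2 ± 5.42% of the gene's TPM in WT hippocampus and 61.3 ± 7.10% in miR-324-null hippocampus. In the neocortex it took 59.7 ± 4.59% in WT and 54.1 ± 4.31% in miR-324-null mice. These fractions too are estimates for overlapping transcripts. *Kcnj3-201* took 35.6 to 40.4% on average. In *Kcnj6* the larger fraction was assigned to the transcript without the PDZ-binding motif. It took 72.1 ± 3.68% and 70.8 ± 4.25% in WT and miR-324-null hippocampus and 70.3 ± 2.22% and 67.0 ± 3.195% in WT and miR-324-null neocortex. The low *Kcnj6* samples of miR-324-null hippocampus, replicates 1 and 2, had shares of 76.2 and 73.5%, against 65.9 to 71.2% in replicates 3 to 5. *Gabbr2* and *Kcnj9* were carried almost entirely by *Gabbr2-201* and *Kcnj9-201*, with 102 and 58.5 TPM on average. Of the 28 transcripts, 13 were above 0 in all samples and 1 was listed at 0 in all.

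**Figure D4:**
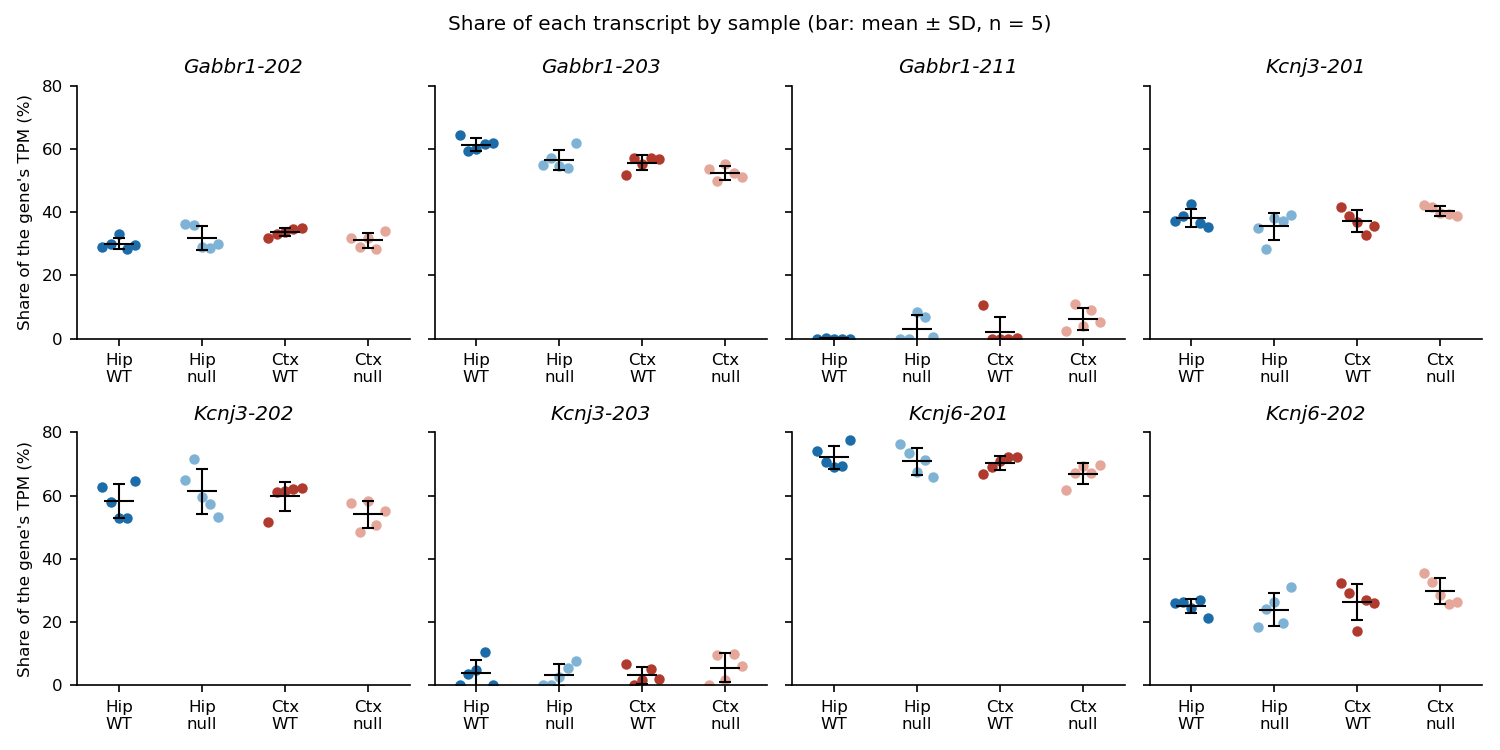
Share of 8 transcripts of *Gabbr1*, *Kcnj3* and *Kcnj6* in their gene's TPM (y axis, percent) in each of the 4 groups (x axis; Hip, hippocampus; Ctx, neocortex), with 1 point a sample and the mean ± SD of 5 samples. *Gabbr1-203*, *Kcnj3-202* and *Kcnj6-201* are assigned the largest fraction of their gene's TPM in every group, and *Gabbr1-211* is at or near 0 in most samples and reaches 10.8%.

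The 72 other genes of the pathway, in lists of partners, G proteins, RGS proteins, related channels and other Gi/o-coupled receptors, are given by their counts. Between the tissues, in WT mice 40 of 67 tested were DE (59.7%, against 36.1% of all genes), 13 higher and 27 lower in the hippocampus. In miR-324-null mice 39 of 67 were DE (58.2%, against 27.4%), 14 higher and 25 lower. Without the 3 libraries high in choroid plexus markers, 38 of 67 were DE in WT mice (56.7%, against 32.2% of all genes) and 28 of 67 in miR-324-null mice (41.8%, against 21%). By genotype edgeR called 0 of the 65 genes tested for the hippocampus and 0 of the 67 for the neocortex, with and without these libraries. At an unadjusted *p* value of at most 0.05 there were 7 (10.8%, against 11.1% of all genes) and 16 (23.9%, against 12.2%). Among the 16 were *Drd2* and *Rgs9*, also named after their values were seen, which belong to the striatal marker list. The part of cell composition in this count was not tested. DESeq2, which called 0.939% and 1.61% of all genes, called *Cnr1* and *Rgs4* in the hippocampus and *Rgs12* and *Rgs14* in the neocortex, genes named after their values were seen. *Rgs4*, which acts on Gi/o proteins, was closest to the edgeR threshold, with 126 ± 6.13 CPM in the hippocampus of WT and 153 ± 4.59 CPM in that of miR-324-null mice (logFC 0.28 ± 0.048, edgeR adjusted *p* value = 0.052). *Cnr1*, the CB1 cannabinoid receptor, was at 169 ± 17.2 and 211 ± 21.3 CPM (edgeR adjusted *p* value = 0.236).

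Among the KCTD subunits, *Kctd12* had the largest tissue difference. It was at 145 ± 10.6 CPM in WT hippocampus and 54.5 ± 6.31 CPM in WT neocortex (logFC 1.41 ± 0.077, edgeR adjusted *p* value = 1.9e-08), and at 144 ± 19.9 and 65.1 ± 11.8 CPM in miR-324-null mice (logFC 1.15 ± 0.13, edgeR adjusted *p* value = 3.2e-05). *Kctd12* encodes a KCTD subunit known for making the GABA-B response desensitise. *Kctd16*, which gives a lasting response, was lower in the hippocampus of both genotypes (logFC -0.58 and -0.64, edgeR adjusted *p* values = 0.012 and 0.035). *Kctd8* was lower in WT mice (logFC -0.42) and *Kctd12b* higher in miR-324-null mice (logFC 0.59). Of the 4 KCTD genes, 1 was higher and 2 lower in WT hippocampus, and 2 were higher and 1 lower in miR-324-null hippocampus. Without the 3 libraries high in choroid plexus markers the calls of *Kctd8* in WT mice and of *Kctd16* and *Kctd12b* in miR-324-null mice were lost (edgeR adjusted *p* values = 0.067, 0.072 and 0.072).

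Of the 6 binding partners, 3 were lower in the hippocampus of WT mice and 2 in that of miR-324-null mice, and 0 were higher in either. *App*, whose product binds the sushi domains of GABA-B1a, had logFC values of -0.27 and -0.18 in WT and miR-324-null mice, *Pianp*, another ligand of these domains, -0.26 and -0.27, and *Jakmip1* -0.25 in WT mice. *Snx27*, which sorts GIRK2 and GIRK3, was among those not called with all libraries. Without the 3 libraries high in choroid plexus markers, 1 of the 6 partners was higher and 3 were lower in WT hippocampus (66.7% called, against 32.2% of all genes). In miR-324-null hippocampus 0 were then higher and 1 lower (16.7%, against 21%). Of the 5 Gi/o alpha subunits *Gnai1* (logFC -0.24) and *Gnaz* (-0.23) were lower in WT hippocampus, and in miR-324-null mice *Gnaz* (-0.18) was lower and *Gnai3* (0.19) higher. 3 of 4 tested beta subunits were lower in the hippocampus of both genotypes, namely *Gnb4* (logFC -0.77 in WT and -1.20 in miR-324-null mice), *Gnb5* (-0.28 and -0.27) and *Gnb1* (-0.23 and -0.15). Of the 10 gamma subunits 3 were higher and 2 lower in WT hippocampus, led by *Gng7* (logFC 1.24), *Gng10* (0.63) and *Gng4* (-0.41), and 3 were higher and 1 lower in miR-324-null hippocampus, led by *Gng4* (-0.87), *Gng10* (0.57) and *Gng7* (0.51). In miR-324-null mice the calls of *App*, *Gnai3*, *Gnaz*, *Gnb1* and *Gng7* were lost without the 3 libraries high in choroid plexus markers (edgeR adjusted *p* values from 0.067 to 0.198).

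Of the 14 RGS genes 4 were higher and 6 lower in WT hippocampus, and 3 were higher and 6 lower in miR-324-null hippocampus. *Rgs6* (logFC -2.21 in WT and -2.27 in miR-324-null mice) and *Rgs4* (-1.70 and -1.31) were much lower in the hippocampus, and *Rgs14*, known from CA2 neurons, was higher in both (1.44 and 0.99). *Rgs9*, which is also a striatal marker, was lower in miR-324-null hippocampus than neocortex (-2.23), where the striatal marker sum of the neocortical samples was 280 to 818 TPM. The other inward rectifiers gave 0 higher and 4 lower of 9 tested in WT and 1 higher and 4 lower of 8 in miR-324-null mice, with *Kcnj12* (-0.80 and -0.84), *Kcnj4* (-0.50 and -0.74) and *Kcnj11* (-0.50 and -0.54) in front. Without the 3 libraries high in choroid plexus markers they gave 0 higher and 3 lower in each genotype. *Kcnj5*, which encodes the cardiac subunit GIRK4, was scarce, with group means from 0.387 to 0.865 CPM, and was tested only where a neocortical miR-324-null group entered the fit, without passing.

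Receptors that share the Gi/o pathway split by gene. In WT mice 5 of 15 tested were higher and 5 lower in the hippocampus, and in miR-324-null mice 4 were higher and 7 lower. The largest differences in WT mice were those of *Oprk1*, the kappa opioid receptor (logFC -2.53), *Chrm2*, a muscarinic receptor (-1.44), and *Sstr2*, a somatostatin receptor (-1.32, and -0.96 in miR-324-null mice). In miR-324-null mice they were those of *Oprk1* (-2.35), *Drd2*, the D2 dopamine receptor and a striatal marker (-2.21), and *Chrm2* (-1.58). The median logFC was -0.22 in WT and -0.14 in miR-324-null mice, beside medians of all genes near 0.

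The genes with levels most like those of each of the 5 genes were taken as the 3 with the highest Pearson correlation of log2 CPM over the 20 samples, among 11754 genes. The points share libraries and depth, and a difference between tissues raises the correlation, so that of the deviations from group means is given beside it, and both are descriptions. *Gabbr1* was most like *Pianp* (0.869, within groups 0.715), *Plcl2* (0.858, 0.596) and *Ccdc92b* (0.857, 0.669). *Gabbr2* was most like *Serpinb8* (0.957, 0.630), *D430041D05Rik* (0.953, 0.707) and *Actn4* (0.950, 0.727). *Kcnj3* was most like *Slc24a2* (0.824, 0.858), *Trove2* (0.795, 0.851) and *Ddx3x* (0.790, 0.823), and *Kcnj6* like *Lyst* (0.933, 0.887), *Add2* (0.932, 0.904) and *Ncoa1* (0.931, 0.886). *Kcnj9* was most like *Mlip* (0.989, 0.894), *Camk2g* (0.985, 0.805) and *Phf24* (0.982, 0.748). Among the 5 genes themselves, *Gabbr2* and *Kcnj9* were the closest pair (0.901), but within groups only 0.179, while *Kcnj3* and *Kcnj6* were at 0.304 over all samples and 0.658 within groups.

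**Figure D5:**
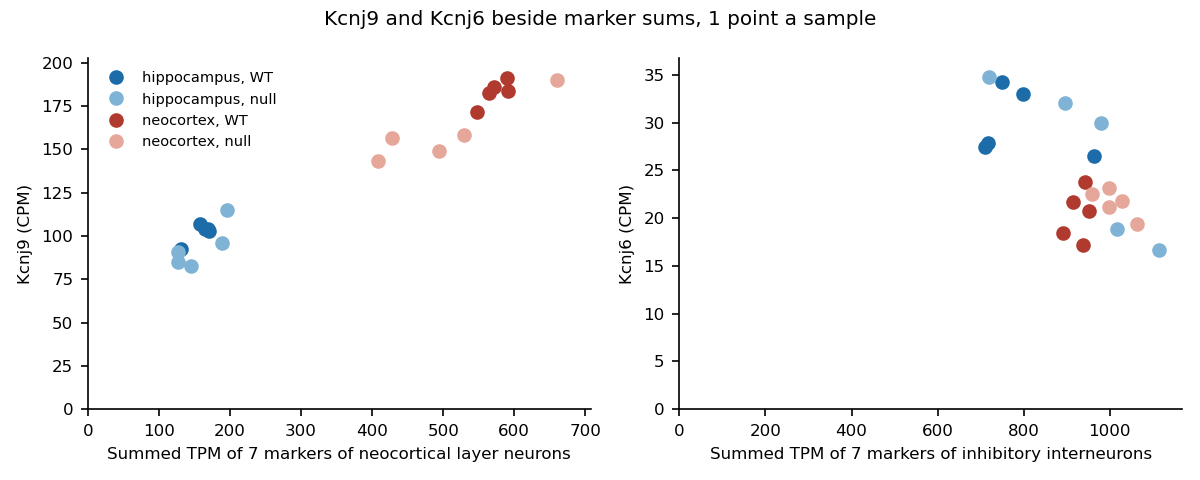
Left, *Kcnj9* in CPM (y axis) against the summed TPM of 7 neocortical layer markers (x axis), and right, *Kcnj6* in CPM against the summed TPM of 7 inhibitory interneuron markers, with 1 point for each of the 20 samples coloured by group. In miR-324-null neocortex the sample with the highest marker sum (660.1 TPM) also has the highest *Kcnj9* level (189.8 CPM). In miR-324-null hippocampus the samples with the highest interneuron sums (1114 and 1017 TPM) have the lowest *Kcnj6* levels. *Sst* has the highest level of the 7 interneuron markers. The highest values of *Pvalb*, *Vip* and *Slc32a1* are lower in miR-324-null than in WT hippocampus, and those of the other interneuron markers are higher.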

How the data were processed

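The authors sequenced libraries from a stranded mRNA kit, ran kallisto against mouse transcripts (GRCm38) and deposited estimated counts and TPM for each transcript and sample. Their processing notes name kallisto and DESeq2. Of 115270 transcripts 113580 were matched by identifier to GENCODE (GRCm38) and summed over 35580 genes. The 1690 others, at most 0.556% of a sample's counts, were left out. Sums of estimated counts were rounded and tested with edgeR 4.0.16 (filterByExpr, TMM, quasi-likelihood test, Benjamini-Hochberg threshold 0.05) in R 4.3.3, separately for each comparison of 10 samples and over all 20 samples for the interaction. logFC values are log2. TMM scaling over all 20 samples gave CPM. Intervals use each test's own degrees of freedom. Shares and ratios of TPM were compared by exact two-sided permutation tests (scipy 1.17.1), adjusted over 20 tests, and transcript shares over 32. Transcripts were tested that reached a mean share of 5% in a group, in genes with at least 2 such. The scripts were tested on simulated data.

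The 5 genes, the gene lists and the marker lists were chosen with earlier results of these data known. Within each list, up to 3 called genes with the largest logFC in a comparison were named, and all called by genotype, and genes outside this rule are marked. The genes most like each of the 5 were sought among genes with a mean CPM of at least 5, with a prior count of 2. Replicates are samples that the labels number 1 to 5 and do not tie to separate mice, so *p* values measure only the spread between these samples. Whether hippocampus and neocortex came from the same mice is not given in the labels, and the fits take them as independent. No pair of samples had identical counts. The depth, between 12752439 and 19617765 counts a sample, limits the scarce transcripts most, and the precision of kallisto's division of reads between transcripts is not known from the files. Alternatives were DESeq2 size factors, no filter, a minimum of 10 counts, DESeq2 1.42.0, transcript-length offsets, all 20 samples in one fit, a replicate block, each replicate left out, other scales and transcripts for the shares, and, added after seeing the data, leaving out 3 libraries with more than 1000 TPM of choroid plexus markers.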

Additional observations from a re-analysis of the deposited data

Results flagged for a closer look

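In 120 groups of 5 samples (levels, shares, ratios and marker sums), 11 had a sample far from the other 4 by Dixon's ratio. The rate of about 1 in 20 by chance holds for independent groups with normal spread. The shares and ratios depend on each other and some shares are mostly 0, so the count cannot be set against that rate. Among the measures of the receptor and the channels, the log2 ratio of *Gabbr1* to *Gabbr2* TPM was 1.82 in miR-324-null hippocampus replicate 5, against 2.06 to 2.11 in the others. The log2 ratio of receptor to channel TPM was 1.75 in WT hippocampus replicate 4, against 1.85 to 1.87. *Gabbr1-211* took 0.104% of the gene's TPM in WT hippocampus replicate 2, against 0 in the others, and 10.5% in WT neocortex replicate 1, against 0 to 0.045%. *Kcnj3-202* took 51.6% in WT neocortex replicate 1, against 61.0 to 62.5% in the others. The level of each of the 5 genes in CPM gave no such sample in any of the 4 groups.

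The other flags were marker sums. Choroid plexus markers reached 6959 TPM in WT hippocampus replicate 3, 6012 TPM in miR-324-null hippocampus replicate 5 and 1286 TPM in miR-324-null neocortex replicate 2. Endothelial markers reached 246 TPM in miR-324-null hippocampus replicate 5 (others 155 to 179) and 297 TPM in miR-324-null neocortex replicate 5 (others 183 to 205). Red blood cell markers reached 4840 TPM in WT hippocampus replicate 3 (others 1232 to 2223).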

How the results depend on the processing

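Over all alternatives run, 0 of the 5 genes were called by genotype in the hippocampus or in the interaction, and between the tissues 3 to 4 were called in WT and 2 in miR-324-null mice. Leaving out 1 library at a time gave 0 to 1 genes called by genotype in the neocortex, where the call was *Kcnj9* without miR-324-null replicate 5. Without that library 566 genes were DE by genotype in the neocortex, against 47, and 20 against 3 in the interaction. The GIRK shares, with 8 tests called, gave 0 without the 3 libraries high in choroid plexus markers and 7 to 8 when 1 library was left out. The *Gabbr1* to *Gabbr2* ratio, with 1 test called, gave 2 with protein-coding transcripts alone, 0 without the 3 libraries and 0 to 2 when 1 library was left out. The sets were smaller there, which raises the smallest *p* value.

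With the replicate number as a block the GIRK shares and the ratio each gave 0 calls, since 5 pairs allow no *p* value below 0.0625, and *Gabbr1* between the tissues in WT mice was at -0.12 (edgeR adjusted *p* value = 0.0677). The block gave 4 and 30 DE genes by genotype in hippocampus and neocortex, against 17 and 47, and 0 against 3 in the interaction. The correlations of the deviations of samples of the same number ran from -0.268 to 0.204 and -0.0744 to 0.228 between the genotypes and from -0.154 to 0.112 and -0.036 to 0.292 between the tissues, and 1, 1, 2 and 3 of the 5 pairs were over 0.1. Between the tissues in miR-324-null mice those of replicates 1, 3 and 4 (0.235, 0.229 and 0.292) were each above those with any other number, while those of replicates 2 and 5 were -0.036 and 0.0828. No comparison had all pairs over 0.1, which cannot show that the samples are unpaired. The numbers were not taken to pair the samples, since the labels do not say what the numbers mark.

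The *Gabbr1* tissue call in WT mice was also lost without a filter on low counts (edgeR adjusted *p* value = 0.0821) and its adjusted *p* value ran from 0.0317 to 0.0944 when 1 library was left out. With length offsets its logFC was -0.21. *Gabbr1* by genotype in the neocortex had logFC values of 0.0315 and 0.0291 with length offsets in edgeR and DESeq2. *Kcnj3* between the tissues in miR-324-null mice was at -0.0059 with DESeq2 size factors, -0.012 without a filter, -0.0063 with a minimum of 10 counts, -0.0058 with DESeq2, -0.0015 with DESeq2 and length offsets, -0.0066 with all 20 samples in one fit and -0.0049 with the block. The *Gabbr1-202* share in that comparison was -0.365 points as a share of counts, and the *Kcnj3-201* share between the tissues in WT mice was -0.249 points without the 3 libraries. The cause was not tested.

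When 1 library was left out, logFC values ran from -0.0024 to 0.028 (*Gabbr1*), -0.0085 to 0.043 (*Gabbr2*), -0.016 to 0.10 (*Kcnj3*) and -0.29 to -0.043 (*Kcnj6*) by genotype in the hippocampus, from -0.039 to 0.0083 (*Kcnj3*) by genotype in the neocortex, from -0.061 to 0.057 (*Kcnj3*) between the tissues in miR-324-null mice, and from -0.0081 to 0.15 (*Kcnj9*) in the interaction. Shares in points ran from -0.18 to 1.68 (*Gabbr1-202*, tissues, miR-324-null), -2.62 to 0.0096 (*Gabbr1-211*, tissues, WT), -0.26 to 2.02 (*Kcnj3-201*, tissues, WT), -1.71 to 1.12 and -1.03 to 1.58 (*Kcnj3-203*, hippocampal genotype and tissues in WT), -2.62 to 0.084 (*Kcnj6-201*, hippocampal genotype), and -2.88 to 0.33 and -3.62 to 0.15 (*Kcnj6-202*, hippocampal genotype and tissues in WT). Over all genes, DESeq2 called 139 and 240 by genotype in hippocampus and neocortex and 11 in the interaction, with length offsets 85 and 184, edgeR with length offsets 17 and 30, a minimum of 10 counts 9 and 26, and all 20 samples in one fit 83 and 56. Depth limited the scarce transcripts most.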
